A study of Mus musculus with 12 samples.

Results

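The circadian clock genes of mouse back skin were followed through 4 groups of RNA-sequencing libraries. The members are 10 genes, namely Arntl (named Bmal1 in newer annotation), Per1, Per2, Per3, Cry1, Cry2, Nr1d1, Nr1d2, Dbp and Tef, taken as the rows of the deposited count table whose Ensembl identifiers carry these symbols. All 10 were found among the 52636 genes listed, and all 10 were among the 17993 genes with enough counts to be tested. The skin came from female BALB/c mice of 6 to 8 weeks whose backs were shaved and injected intradermally, over 2 days, with LL37 (the active peptide of human cathelicidin) or with control vehicle. The mice received the mTORC1 inhibitor rapamycin (RAPA) or not, which gave the control, control + RAPA, LL37 and LL37 + RAPA groups with 3 independent biological samples each. The methods give RAPA as 4 mg/kg per day by intraperitoneal injection, without naming the route for the sequenced mice. The strain given here is the one the methods name for that route, whereas they name C57BL/6 for topical RAPA. The sex is the one they name for BALB/c experiments. As a model this is an acute inflammation after a peptide load, and whole skin was sequenced. Neither the labels nor the methods used here give a clock time of collection, a batch or a pairing of mice, so a difference in collection time that followed the groups cannot be told apart from treatment.

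The clock of mammalian cells is a loop of transcription and feedback. ARNTL pairs with CLOCK on E-box sequences and drives the Per and Cry genes, whose proteins accumulate and shut ARNTL and CLOCK off again. The same pair drives Nr1d1 and Nr1d2, nuclear receptors that repress Arntl, and the transcription factors Dbp and Tef, which pass the rhythm on to output genes through D-box sequences. Most of the E-box genes and Arntl swing in roughly opposite phase. Each of these genes has a level that depends on the hour, and skin, its keratinocytes, fibroblasts, adipocytes and hair follicles all hold running clocks.

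These motifs can be read in the members' own promoters. RefSeq promoter windows of 300 bases, from 250 bases before a transcription start to 50 after it on build GRCm38.p6, were at hand for 9 of the 10 members in 12 windows, and Per2 had no entry. The E-box searched was CACGTG, which reads alike on both strands. It was found in windows of 3 of the 9 genes, Per1, Cry1 and Tef, against 8.09% of all genes with a window. The D-box searched was TTATGTAA or TTACGTAA on either strand, and Per3 held 2 copies in 1 window, where 1.06% of all 32851 windows held any. Of the other motifs searched on both strands, the core of the element bound by NR1D receptors (TAGGTCA or TGGGTCA) was found in 1 Arntl window, 30 bases after the start, against 6.45% of all windows, and the cyclic AMP element TGACGTCA was found in 0 members against 1.79% of windows. The 4 stretches below are shown because they hold the elements through which the loop and its outputs are known to act, one for each member with a match before its start. Capitals mark the motif, and each stretch runs from 5′ to 3′ on the strand of the gene and ends just before the transcription start.
Per1 (chr11:69098699-69098948, plus strand, E-box beginning 166 bases before the start): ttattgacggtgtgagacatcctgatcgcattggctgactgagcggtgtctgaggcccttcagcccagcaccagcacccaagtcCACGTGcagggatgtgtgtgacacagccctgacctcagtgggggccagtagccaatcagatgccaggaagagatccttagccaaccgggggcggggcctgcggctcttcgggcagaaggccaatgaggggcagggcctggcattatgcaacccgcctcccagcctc
Cry1 (chr10:85185055-85185304, minus strand, E-box beginning 60 bases before the start): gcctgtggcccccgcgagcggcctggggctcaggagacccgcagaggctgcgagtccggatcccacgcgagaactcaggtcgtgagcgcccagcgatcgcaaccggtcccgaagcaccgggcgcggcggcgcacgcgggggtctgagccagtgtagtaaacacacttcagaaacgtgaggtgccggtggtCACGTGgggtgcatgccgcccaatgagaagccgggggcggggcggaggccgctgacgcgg
Tef (chr15:81811164-81811413, plus strand, E-box beginning 138 bases before the start): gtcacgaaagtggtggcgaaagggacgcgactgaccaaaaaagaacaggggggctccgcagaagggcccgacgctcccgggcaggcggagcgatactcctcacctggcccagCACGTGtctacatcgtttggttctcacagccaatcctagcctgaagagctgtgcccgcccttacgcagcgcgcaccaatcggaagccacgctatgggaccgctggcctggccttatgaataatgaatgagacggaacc
Per3 (chr4:151044666-151044915, minus strand, D-boxes beginning 205 and 158 bases before the start): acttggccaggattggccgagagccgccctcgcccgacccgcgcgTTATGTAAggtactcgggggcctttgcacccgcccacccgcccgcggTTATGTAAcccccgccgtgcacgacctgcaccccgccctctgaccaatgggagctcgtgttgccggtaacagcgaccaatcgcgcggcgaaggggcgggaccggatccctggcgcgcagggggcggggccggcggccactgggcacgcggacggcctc
The Per1 and Tef stretches lie wholly inside the annotated spans of the same genes. The Per3 stretch lies before its gene, and the Cry1 stretch does too apart from its last 10 bases, which lie inside the annotated gene. Tef also held an E-box in its other window, beginning 127 bases before the start of that window's transcript. A match is a description of these letters and no measurement of binding.

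The depth of the libraries lay between 15734559 and 23271784 counted reads, and levels are given as CPM, read counts brought to the same library size with TMM factors. The first LL37 library and the second differed from each other about as much as replicates of the other groups did, with a mean chi-square of 21.6 per gene against 13.8 to 39.4 in the other groups. LL37 replicate 3 stood apart from both, with 59.5 and 70.1. The comparisons with the LL37 group are therefore given a second time without LL37 replicate 3, which leaves 2 LL37 libraries in the fit.

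To determine how LL37 skin differed from control skin in its clock, the 10 members were compared between these groups. The levels of 8 members fell in LL37 skin at an adjusted p under 0.05 over all tested genes (edgeR quasi-likelihood test with Benjamini-Hochberg adjustment), where 21.5% of all genes fell. Of these, Cry2, Nr1d1, Per2, Per3 and Tef were DEGs, with a change above 1 on the log2 scale, where 10.7% of genes were DEGs with lower levels. For 7 members all 3 LL37 libraries lay below all 3 control libraries, as 25.9% of genes did. The median log2 fold change was -1.001 over the 10 members and 0.00 over all tested genes. Arntl and Dbp did not pass. Since whole tissue was sequenced, fewer cells of a type and less RNA per cell cannot be told apart.

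**Figure D1:**
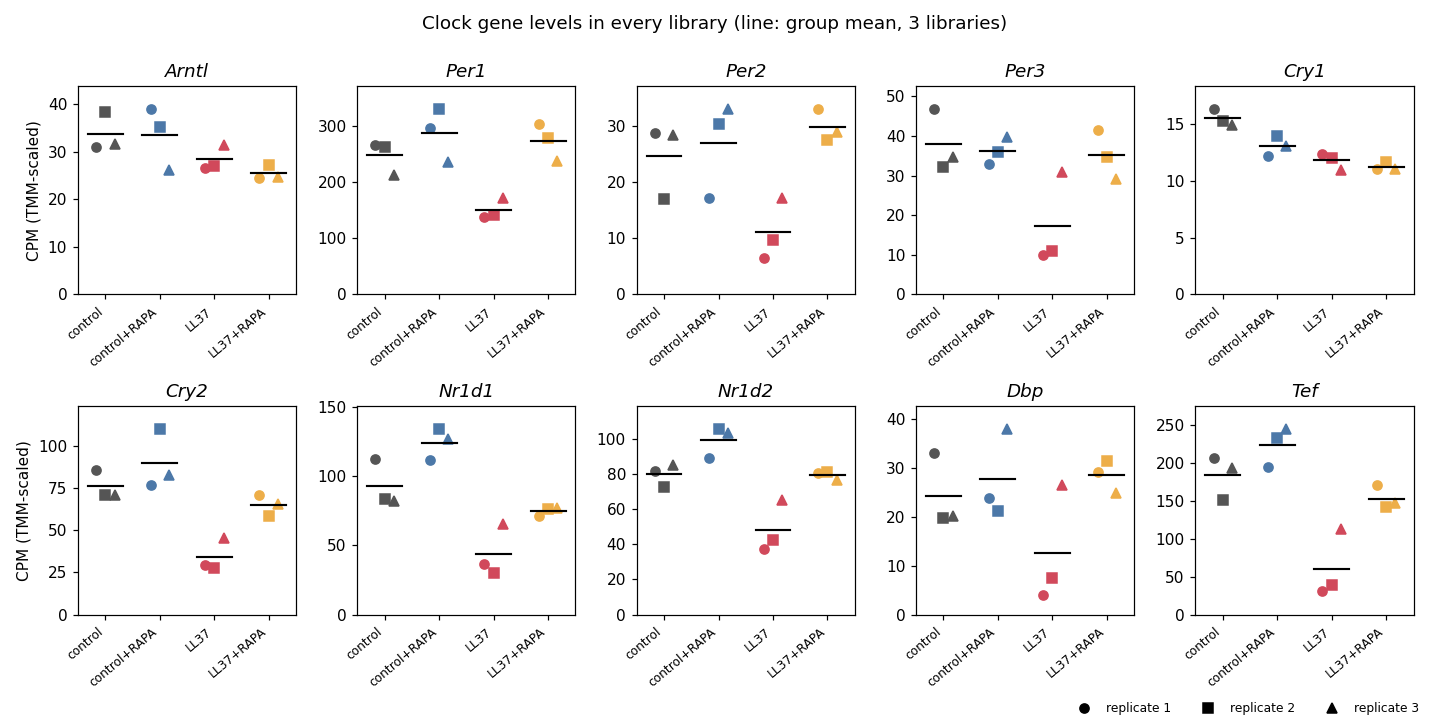
CPM (TMM-scaled) of the 10 clock genes in each of the 12 libraries, with 1 panel per gene, symbols for the replicate number and a line at the group mean. In most panels the LL37 points lie below the other groups, the triangle of LL37 replicate 3 lies above the other LL37 points, and Arntl stays between 24.5 and 39.1 CPM throughout.

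Among the repressors, Per1, which also answers quickly to hormones and stress, was the most abundant member. It stood at 267, 263 and 213 CPM in control skin and at 138, 141 and 172 CPM in LL37 skin, so the groups did not overlap. Per1 fell by 0.72 on the log2 scale (SE 0.149, adjusted p = 0.00236). All 20 alternative fits kept it past the threshold.

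Per2, whose product holds the repressor complex together with the CRY proteins, measured 28.8, 16.95 and 28.4 CPM in control libraries and 6.53, 9.73 and 17.2 CPM in LL37 libraries. The highest LL37 library thus lay just above the lowest control library. The difference was -1.14 (SE 0.348, adjusted p = 0.022), and it passed in 14 of 20 alternative fits.

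Per3, the member with D-boxes in its promoter, measured 46.9, 32.1 and 34.6 CPM in control skin. In LL37 skin it measured 10.1, 10.9 and 30.9 CPM, so the groups did not overlap, although LL37 replicate 3 came close to the lowest control library. The change of -1.12 (SE 0.366, adjusted p = 0.030) passed in 13 of 20 alternative fits.

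The cryptochromes, the repressors that bind ARNTL and CLOCK directly, moved by unequal amounts. Cry2 measured 85.8, 71.0 and 70.7 CPM in control libraries against 29.3, 27.7 and 45.6 CPM in LL37 libraries, and it fell by 1.15 (SE 0.193, adjusted p = 0.000718). Cry1 measured 16.4, 15.3 and 14.9 CPM against 12.4, 12.1 and 11.01 CPM, and it fell by 0.40 (SE 0.111, adjusted p = 0.0136). Cry1 was the only member whose lowest LL37 value was that of replicate 3. Without that library its adjusted p was 0.0514.

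The receptors of the second loop fell together. Nr1d1 measured 113, 83.3 and 81.7 CPM in control skin and 36.4, 29.8 and 65.6 CPM in LL37 skin, a difference of -1.07 (SE 0.241, adjusted p = 0.00437). Nr1d2 measured 82.1, 73.0 and 85.3 CPM and then 37.1, 42.3 and 65.4 CPM, a difference of -0.73 (SE 0.171, adjusted p = 0.00506). In both genes the groups did not overlap, and both passed in 20 of 20 alternative fits.

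The output factors Tef and Dbp had the widest spread within the LL37 group relative to their mean. Tef measured 207, 151 and 194 CPM in control skin and 30.7, 38.4 and 113 CPM in LL37 skin, and it fell by 1.60 (SE 0.403, adjusted p = 0.00941), the largest fitted change of the 10. Dbp measured 33.1, 19.7 and 20.2 CPM in control skin, and 4.02, 7.47 and 26.5 CPM in LL37 skin. LL37 replicate 3 therefore sat inside the control range for Dbp while the other LL37 libraries were at 16.5 and 30.7% of the control mean. The fitted difference of Dbp was -0.93 (SE 0.555, adjusted p = 0.207), with a 95% interval from -2.17 to 0.31.

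Arntl, the activator, measured 31.1, 38.4 and 31.5 CPM in control libraries and 26.6, 27.0 and 31.5 CPM in LL37 libraries. The groups overlapped, and the difference was -0.25 (SE 0.146, adjusted p = 0.198) with a 95% interval from -0.56 to 0.07. Its partner gene Clock, named after its values were seen, measured 38.2, 49.1 and 46.8 CPM and then 49.3, 47.9 and 44.6 CPM (adjusted p = 0.626). The activator pair thus showed no difference past the threshold while 8 of the 10 members were lower.

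To examine what RAPA changed in LL37-injected skin, LL37 libraries were compared with LL37 + RAPA libraries. These comparisons share the LL37 libraries, so a low LL37 value enters both. The levels of 6 members were lower in LL37 than in LL37 + RAPA skin at an adjusted p under 0.05, where 12.3% of all genes were. Per2 and Tef were DEGs, where 5.67% of genes were lower DEGs, and in 6 members the libraries did not overlap, as in 20.7% of genes. The median log2 difference of the members was -0.89, against 0.00 over all genes.

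Per1 measured 305, 279 and 238 CPM in LL37 + RAPA skin, above all 3 LL37 libraries, and LL37 was lower by -0.86 on the log2 scale (SE 0.149, adjusted p = 0.00317). Per2 measured 33.1, 27.5 and 29.1 CPM there, and the difference was -1.41 (SE 0.348, adjusted p = 0.0159). Cry2 measured 70.6, 58.5 and 65.4 CPM, a difference of -0.92 (SE 0.192, adjusted p = 0.00731). These repressor genes were lower in every LL37 library than in any LL37 + RAPA library.

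Nr1d1 measured 71.3, 76.5 and 76.7 CPM under LL37 + RAPA, a difference of -0.77 (adjusted p = 0.0394), and Nr1d2 measured 80.7, 81.5 and 76.6 CPM, a difference of -0.72 (adjusted p = 0.0125). Tef measured 171, 142 and 147 CPM, a difference of -1.34 (SE 0.400, adjusted p = 0.0360). The calls of Tef and Nr1d1 passed in only 7 and 8 of 20 alternative fits. Per3 measured 41.4, 34.7 and 29.2 CPM in LL37 + RAPA skin, overlapping LL37 replicate 3, and did not pass (-1.02, adjusted p = 0.0666). Dbp measured 29.3, 31.5 and 25.0 CPM and did not pass either (-1.16, SE 0.555, adjusted p = 0.154).

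Cry1 and Arntl did not follow the others. Cry1 measured 11.1, 11.7 and 11.03 CPM in LL37 + RAPA skin, level with LL37 skin, with a difference of 0.07 (adjusted p = 0.691) and a 95% interval from -0.18 to 0.31. Arntl measured 24.5, 27.2 and 24.6 CPM, with a difference of 0.16 (adjusted p = 0.454) and an interval from -0.16 to 0.48.

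**Figure D2:**
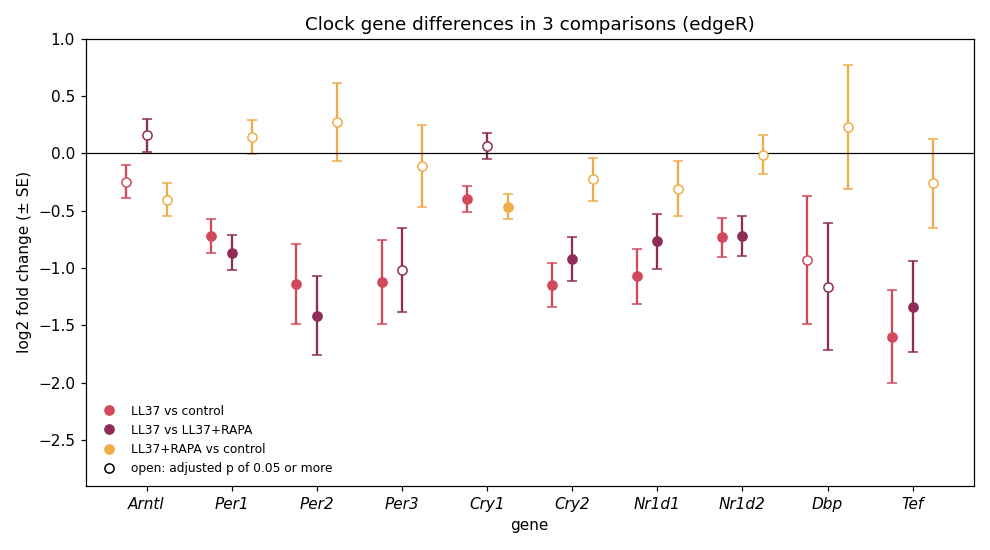
Log2 fold change (± SE, edgeR, all 12 libraries in the fit) of the 10 clock genes for 3 comparisons, namely LL37 vs control (red), LL37 vs LL37 + RAPA (purple) and LL37 + RAPA vs control (yellow), with filled points for an adjusted p under 0.05. The first 2 comparisons lie below 0 for 8 genes, and LL37 + RAPA vs control lies between -0.46 and 0.28 with 1 filled point, Cry1.

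When LL37 + RAPA skin was set against control skin, 1 of the 10 members passed, where 13.8% of all genes did. This was Cry1, which was lower by -0.46 (SE 0.111, adjusted p = 0.0160). Arntl stood at -0.40 (SE 0.146, adjusted p = 0.0910), and the other 8 members lay between -0.31 (Nr1d1) and 0.28 (Per2). In 4 members, Cry1, Arntl, Cry2 and Nr1d1, all 3 LL37 + RAPA libraries lay below the lowest control library, as in 19.5% of genes. The members' order of change therefore differed from that in LL37 skin, where Cry1 and Arntl had the smallest values, but the control and LL37 + RAPA libraries enter other comparisons too and no test of the order was made.

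RAPA without LL37 changed 0 of 10 members at an adjusted p under 0.05 in control + RAPA vs control, as it changed 0% of all genes by edgeR. At an unadjusted p under 0.05 there were 1 member and 1534 genes (8.53%), and DESeq2 also called 0 members. The member was Cry1, at 12.2, 14.0 and 13.1 CPM against 16.4, 15.3 and 14.9 CPM in control libraries, with a difference of -0.25 (adjusted p = 0.580). The largest positive value was that of Nr1d1, at 111, 134 and 126 CPM (0.42, adjusted p = 0.664).

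LL37 + RAPA vs control + RAPA shares no library with LL37 vs control. It gave 0 members past the threshold by edgeR, where 18.4% of all genes passed, and 1 member, Nr1d1, passed by DESeq2. At an unadjusted p under 0.05 there were 3 members, close to the 30.5% of all genes. Their fitted differences were -0.73 for Nr1d1 (adjusted p = 0.0558), -0.47 for Cry2 (adjusted p = 0.114) and -0.40 for Arntl (adjusted p = 0.0814). A fit of these groups alone called 4 members, Nr1d1, Nr1d2, Cry2 and Tef. The share of all genes is not given for that fit or for DESeq2 here, so these counts have no background beside them.

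The interaction of LL37 and RAPA tests whether the difference that RAPA made depended on LL37. It called 0 members by edgeR, where 3.01% of all genes passed, and 1 member, Per1, by DESeq2, for which no share of all genes is given. At an unadjusted p under 0.05 there were 3 members, where 22.3% of all genes were. Per1 had an interaction of -0.65 (SE 0.210, adjusted p = 0.105), Per2 of -1.29 (adjusted p = 0.151) and Cry2 of -0.68 (adjusted p = 0.168). A larger difference in LL37-injected than in vehicle-injected skin was thus not shown for any member by the edgeR fit of all 12 libraries.

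The counts depended on single libraries. In LL37 vs LL37 + RAPA the 6 members became 3, namely Per1, Nr1d2 and Cry2, without LL37 replicate 1, LL37 replicate 2 or LL37 + RAPA replicate 1. The 2 DEGs became 0 in these fits. Without any other library except LL37 replicate 3, there were 4 or 5 members and 1 DEG. Over all genes the lower calls fell as well, from 2214 with all libraries to 1146, 1414 and 1225 in the fits with 3 members, in the order named. Per1, Nr1d2 and Cry2 passed in this comparison whichever library was left out. In LL37 vs control the 5 DEGs became 1, Tef, without LL37 replicate 2, 2 without LL37 replicate 1 or control replicate 1, and 3 without control replicate 3.

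Leaving out LL37 replicate 3 raised several counts, over all genes as well as among the members. That library held the highest LL37 value of every member but Cry1, so leaving it out had to lower the LL37 mean of each. The values below are therefore descriptions and no separate support. LL37 vs control again had 8 members past the threshold, where 23% of all genes were then lower, but Dbp entered the list (-2.06, adjusted p = 0.000887) and Cry1 left it (-0.32). Per1, Per2, Per3 and Cry2 then stood at -0.80, -1.58, -1.82 and -1.38 on the log2 scale, and Nr1d1, Nr1d2 and Tef at -1.45, -0.98 and -2.38. LL37 vs LL37 + RAPA rose from 6 to 8 members, while the share of all genes that were lower rose from 12.3 to 17.4%, with Dbp at -2.33 (adjusted p = 0.000845) and Per3 at -1.75 (adjusted p = 6.61e-05), and from 2 to 7 DEGs, where the share of lower DEGs rose to 8.81%. Per1, Per2 and Cry2 stood at -0.98, -1.88 and -1.19 there, and Nr1d1, Nr1d2 and Tef at -1.18, -1.005 and -2.15. The interaction rose from 0 to 8 members, all but Cry1 and Arntl, where 9.83% of all genes then had a negative interaction past the threshold, with Tef at -1.86 (adjusted p = 0.000248), Per3 at -1.81 (adjusted p = 0.000694) and Dbp at -2.14 (adjusted p = 0.00983). LL37 + RAPA vs control + RAPA rose from 0 to 4, where 22.7% of all genes passed. Arntl passed in none of these (-0.30, adjusted p = 0.141 in LL37 vs control).

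**Figure D3:**
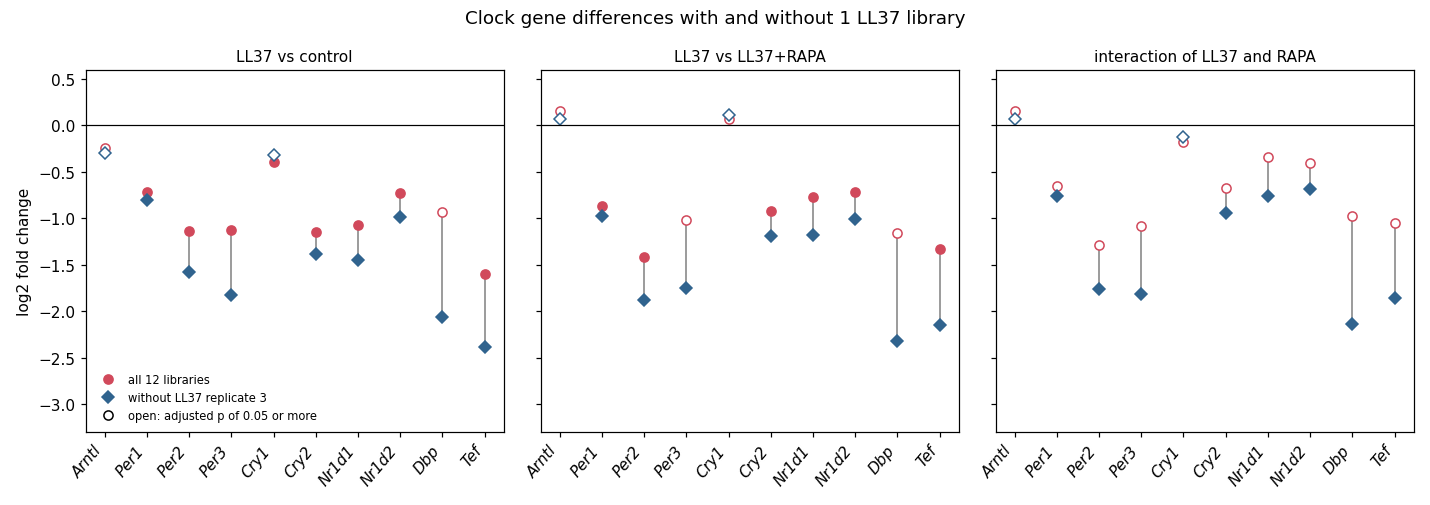
Log2 fold change of the 10 clock genes, with LL37 vs control on the left, LL37 vs LL37 + RAPA in the middle and the interaction on the right, from all 12 libraries (circles) and without LL37 replicate 3 (diamonds), with filled symbols for an adjusted p under 0.05 and a grey line joining both values of a gene. Dbp moves from -0.93 to -2.06 in LL37 vs control, while Arntl moves from -0.25 to -0.30.

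Measured against the control mean, the members had a median of 39.0% in LL37 replicate 1, 38.0% in replicate 2 and 70.9% in replicate 3. In LL37 + RAPA libraries the medians were 96.9, 87.2 and 84.6%. The control libraries themselves had medians of 113, 90.6 and 93.4%, and the control + RAPA libraries of 103, 125 and 119%. The members of a library are not independent of each other, so these are descriptions of libraries.

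Because most of the E-box genes and Arntl are known to peak at roughly opposite hours, their difference within a library was also read, with no test. Arntl minus Dbp in log2 CPM was -0.09, 0.96 and 0.64 in control libraries and 0.71, 0.73 and -0.54 in control + RAPA libraries. LL37 libraries stood at 2.70, 1.84 and 0.25, and LL37 + RAPA libraries at -0.26, -0.22 and -0.02. LL37 replicates 1 and 2 lay above all other libraries, and LL37 replicate 3 lay inside the control range. Within the control group the difference already spanned more than 1 on the log2 scale between mice of the same treatment.

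LL37 replicates 1 and 2 were also the highest for Arntl minus Per3, at 1.396, 1.301 and 0.03 in LL37 libraries against values from -0.76 to 0.26 elsewhere, and for Arntl minus Nr1d1, at -0.45, -0.14 and -1.06 against values from -2.26 to -1.12. For Arntl minus Nr1d2, LL37 replicate 3 at -1.05 lay below control replicate 2 at -0.93. No hour was assigned to any library, and the part of collection time in these differences was not tested.

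**Figure D4:**
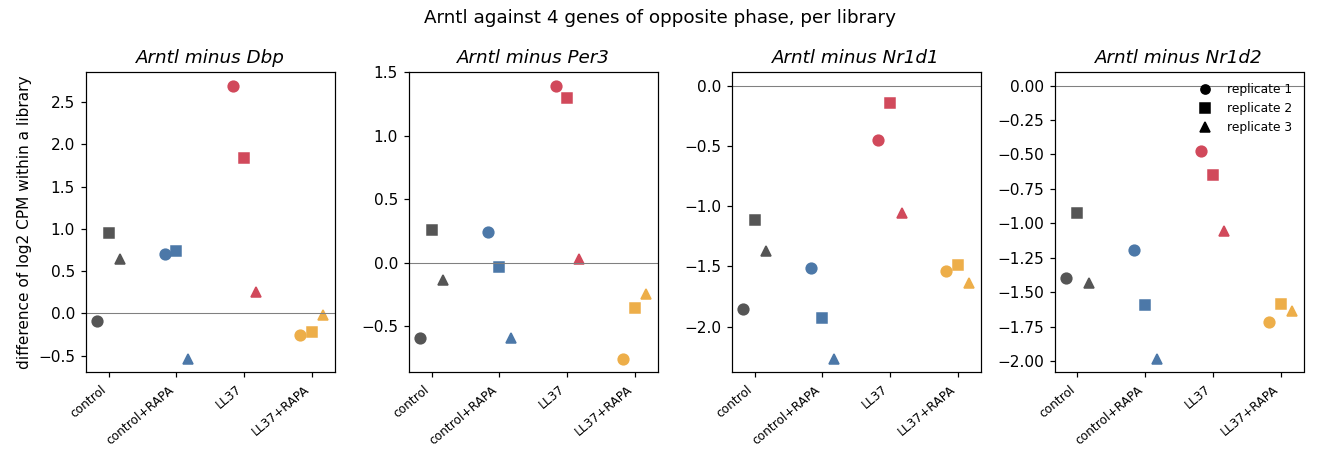
Difference of log2 CPM (prior count 2) between Arntl and Dbp, Per3, Nr1d1 or Nr1d2 within each of the 12 libraries, by group, with symbols for the replicate number. LL37 replicates 1 and 2 are the highest points in every panel, and for Dbp they stand at 2.70 and 1.84.

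Of 28 other genes that act in or on the clock, all 28 were tested. In LL37 vs control 6 rose and 6 fell, with a median log2 fold change of -0.13. Of all genes 21% rose and 21.5% fell, so the list was near the background in both directions. In LL37 vs LL37 + RAPA 3 were higher and 5 lower in LL37 skin, where 11.7% of all genes were higher and 12.3% lower. Those named were chosen by the rule on the smallest p in LL37 vs control, unless stated, and all chosen by it also passed there without LL37 replicate 3.

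Among activators, Arntl2, a paralog of Arntl, went from 8.57, 8.35 and 5.84 CPM in control skin to 14.7, 14.3 and 10.5 CPM in LL37 skin, and rose by 0.80 (adjusted p = 0.00417).

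The repressors Bhlhe40 and Bhlhe41, which compete for E-boxes, moved apart. Bhlhe40 measured 69.0, 57.3 and 51.5 CPM in control and 198, 161 and 77.0 CPM in LL37 libraries and rose by 1.29 (adjusted p = 0.00834), while Bhlhe41 fell by 0.91 (adjusted p = 0.00535). Nfil3, the repressor that acts at the D-box against Dbp and Tef and is named here after its values were seen, measured 48.3, 50.3 and 45.8 CPM in control skin and 95.6, 92.0 and 28.4 CPM in LL37 skin. It did not pass (0.58, adjusted p = 0.216), and LL37 replicate 3 lay below every control library.

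Hlf, the third factor of the Dbp and Tef family and also named after its values were seen, had the Dbp pattern. It measured 23.6, 24.6 and 18.7 CPM in control skin, 2.18, 2.45 and 21.8 CPM in LL37 skin and 26.9, 25.2 and 21.5 CPM in LL37 + RAPA skin. With all libraries it did not pass in LL37 vs control (-1.32, SE 0.694, adjusted p = 0.157). Without LL37 replicate 3 the difference was -3.24 (adjusted p = 1.06e-06). As that library held the highest LL37 value of Hlf, leaving it out had to enlarge the difference, and this p is no separate support.

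Usp2, a ubiquitin protease under clock control, fell by 1.73 (SE 0.159, adjusted p = 1.1e-05), from 97.7, 80.6 and 93.5 CPM to 29.6, 24.6 and 27.5 CPM. Unlike most members it stayed low under LL37 + RAPA, at 37.6, 29.4 and 26.6 CPM, with a difference of -0.20 from LL37 (adjusted p = 0.388). Tsc22d3, a leucine zipper gene that glucocorticoids and the clock both drive, fell by 1.59 (adjusted p = 0.000952), from 300, 274 and 401 CPM to 72.9, 89.3 and 161 CPM, and stood at 342, 284 and 380 CPM under LL37 + RAPA.

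Of the genes that modify clock proteins, Csnk1a1, a kinase, rose by 0.45 (adjusted p = 0.00244), and Btrc, a ubiquitin ligase subunit that targets PER proteins, fell by 0.69 (adjusted p = 0.000535). The cofactor gene Nono rose by 0.40 (adjusted p = 0.00155). Timeless, whose product also acts at replication forks, rose by 1.66 (adjusted p = 0.000445), from 13.3, 13.4 and 15.8 CPM to 53.2, 54.2 and 26.5 CPM.

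Since Per1 is also a target of glucocorticoids and of immediate early signals, genes of both kinds were read beside it. Of 8 glucocorticoid-induced genes, 0 rose and 1 fell in LL37 vs control, where 21% of all genes rose and 21.5% fell. The gene that fell was Klf9 (-1.79, SE 0.170, adjusted p = 1.5e-05), itself a clock output. The median log2 fold change of the 8 was -0.46. For 5 of them all LL37 libraries lay below all control libraries, as 25.9% of genes did. In LL37 vs LL37 + RAPA 3 of the 8 were lower in LL37 skin, where 12.3% of all genes were. These were Klf9 (-1.02, adjusted p = 0.00258), Fkbp5 (-1.06, adjusted p = 0.00229) and Sgk1 (-0.80, adjusted p = 0.0388). Both Fkbp5 and Sgk1 are named after their values were seen. Fkbp5 measured 195, 188 and 234 CPM in control skin, 154, 168 and 160.2 CPM in LL37 skin and 381, 318 and 306 CPM in LL37 + RAPA skin. In control + RAPA skin it measured 241, 411 and 316 CPM, also above all control libraries, at 0.65 from control (adjusted p = 0.402) beside 0.70 for LL37 + RAPA vs control (adjusted p = 0.0157). Of 8 immediate early genes, 1 rose in LL37 vs control, Junb (1.46, adjusted p = 0.00116), where 21% of all genes rose. Nr4a1, named after its values were seen, was the 1 that fell, where 21.5% of all genes fell.

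Markers of cell types moved with the same groups. The summed level of 18 skeletal muscle markers was 38970 to 56530 CPM in control and 41170 to 73350 CPM in control + RAPA libraries, 154 to 1006 CPM in LL37 libraries and 3360 to 7083 CPM in LL37 + RAPA libraries. The share of counts on them was 4.71% ± 0.845 (SD, n = 3) in control and 0.0474% ± 0.0517 (SD, n = 3) in LL37 skin, a two-sided exact permutation p of 0.1, the smallest this design allows. All 17 tested muscle markers fell in LL37 skin, and Tnnc2 was at or under 3 counts in every LL37 library. In LL37 + RAPA libraries the muscle sum was at 14.6, 6.95 and 10.5% of the control mean. The members stood between 71.0 and 134% there, with Cry1 at 71.4, 75.2 and 71.0% and Arntl at 72.8, 80.7 and 73.2%. In LL37 replicates 1, 2 and 3 the muscle sum was at 0.317, 0.394 and 2.08% of the control mean, highest in replicate 3 as most members were, while the members of replicate 3 stood between 60.1 and 109%.

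Adipocyte markers were low in LL37 skin and near control in LL37 + RAPA skin, as most clock genes were. The summed hair follicle markers, a sum made up mostly of Lhx2, had the same pattern, but the single markers did not move together. The sum of 9 adipocyte markers was at 15.2, 12.3 and 28.0% of the control mean in LL37 libraries and at 88.4, 86.1 and 87.3% in LL37 + RAPA libraries, and 8 of 9 markers fell in LL37 vs control. The sum of 6 hair follicle markers was 50.6 to 63.3 CPM in control, 37.4 to 47.9 CPM in control + RAPA, 15.8 to 39.1 CPM in LL37 and 44.7 to 56.3 CPM in LL37 + RAPA libraries. It stood at 27.7, 39.7 and 68.5% of the control mean in LL37 replicates 1, 2 and 3 and at 98.7, 78.4 and 82.6% in LL37 + RAPA libraries. Within the LL37 group it was highest in replicate 3, as the members' median was.

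Most of that sum was Lhx2, a transcription factor of hair follicle stem cells that is named after its values were seen. Lhx2 measured 53.4, 58.7 and 45.7 CPM in control skin and 11.9, 17.2 and 34.2 CPM in LL37 skin, and it fell by 1.31 (adjusted p = 0.00619). Of the other tested hair follicle markers, the keratin gene Krt71 rose (1.25, adjusted p = 0.0328) and Msx2 did not pass (-0.18, adjusted p = 0.542), while the hair keratin gene Krt25 was at or under 3 counts in all 12 libraries.

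Of 9 neutrophil markers 7 were tested, and 6 rose in LL37 skin. Their sum was 1751, 2439 and 252 CPM in LL37 replicates 1, 2 and 3, against 10.4 to 72.9 CPM in control and 84.1 to 358 CPM in LL37 + RAPA libraries, so the library with the highest clock genes had the lowest neutrophil markers of its group. In control libraries the neutrophil genes Ngp and Ly6g were at or under 3 counts. The part of these cell types in the clock gene differences was not tested.

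The other cell type lists were read as well. Sums of 8 macrophage markers were 442 to 855 CPM in control, 1403 to 1444 CPM in LL37 and 836 to 1196 CPM in LL37 + RAPA libraries. Of these 8 markers 7 rose in LL37 vs control, where 21% of all genes rose. In LL37 vs LL37 + RAPA 4 were higher in LL37 skin, where 11.7% of all genes were. Sums of 8 keratinocyte markers, which mark the tissue as skin, were 28340 to 36650 CPM in control and 32770 to 46140 CPM in LL37 libraries, with none of the 8 at the floor. Fibroblast sums were 2477 to 5569 CPM in control and 3824 to 5302 CPM in LL37 libraries. Endothelial sums were 259 to 338 and 225 to 298 CPM, and T cell sums 15.1 to 17.6 and 17.6 to 21.7 CPM. In LL37 + RAPA libraries the keratinocyte, fibroblast, endothelial and T cell sums were 28600 to 30600, 4310 to 6329, 358.5 to 374.6 and 10.5 to 11.5 CPM. In LL37 vs LL37 + RAPA 4 of 8 keratinocyte and 3 of 6 tested T cell markers were higher in LL37 skin, where 11.7% of all genes were. There 2 of 6 endothelial markers were lower, where 12.3% of all genes were, and 0 of 6 fibroblast markers passed.

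**Figure D5:**
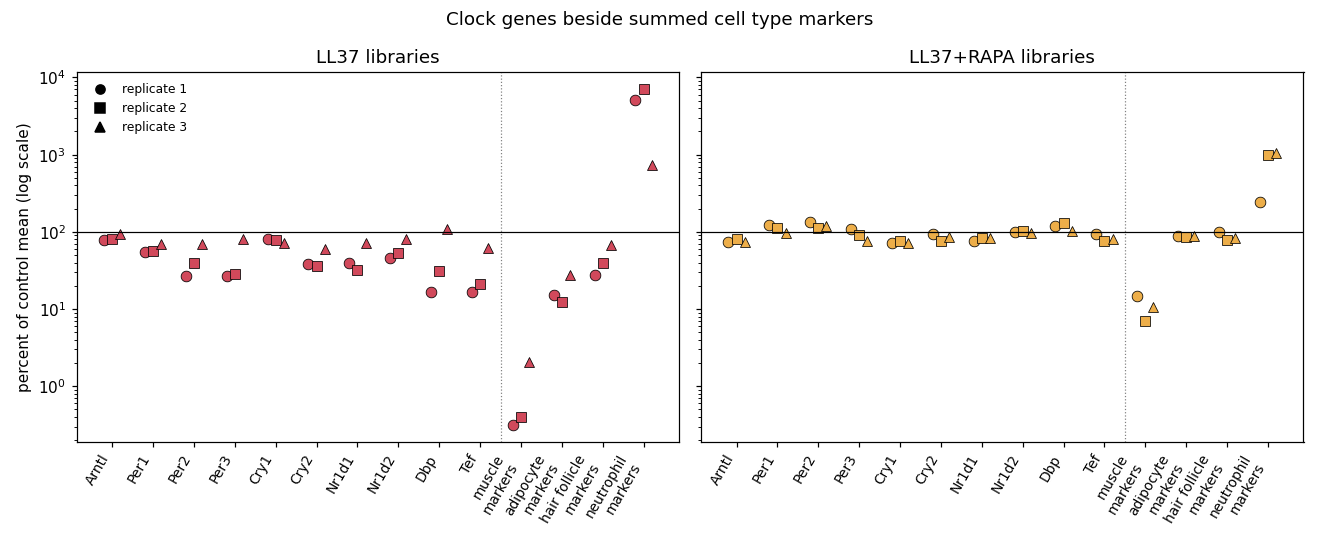
Level of each clock gene and of the summed muscle, adipocyte, hair follicle and neutrophil markers in each LL37 library (left) and LL37 + RAPA library (right), as a percent of the control mean on a log scale, with a line at 100%. In LL37 replicates 1 and 2 the clock genes lie between 16.5 and 80.2%. In LL37 + RAPA libraries they lie between 71.0 and 134%, and the muscle markers lie at 6.95 to 14.6%.

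Compared per length, Per1 was the most abundant member in control skin at 120.2 TPM ± 13.2 (SD, n = 3), followed by Nr1d1 at 82.2 ± 15.7, Tef at 64.0 ± 11.1, Nr1d2 at 40.6 ± 3.95, Cry2 at 32.8 ± 3.89 and Dbp at 22.3 ± 7.07. The lowest 4, Cry1 at 12.7 ± 0.640, Arntl at 12.2 ± 1.26, Per2 at 11.6 ± 3.30 and Per3 at 10.8 ± 2.32, had overlapping ranges over their libraries. Nr1d2 and Cry2 were also close, with ranges of 36.2 to 43.8 and 30.1 to 37.3 TPM. In LL37 skin Tef stood at 22.7 ± 17.9 TPM and Nr1d2 at 26.0 ± 9.20, a gap inside their spread. Per1 stayed first at 77.4 ± 13.03 TPM. TPM was computed here from the counts and the merged exon length of each gene in GENCODE M21.

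To ask which genes varied with the clock from mouse to mouse, each gene's log2 CPM was centred on its group mean and correlated over the 12 libraries, among 12418 genes with a mean of at least 5 CPM. Among the nearest genes to Dbp were Agfg2 (r = 0.987), Cbx6 (r = 0.983), Mxra7 (r = 0.968) and Ldb2 (r = 0.954). Among members, Per3 (r = 0.929) and Tef (r = 0.919) ranked 28 and 39 for Dbp, and Arntl had r = 0.047. Without LL37 replicate 3 the r of Agfg2 was 0.972, that of Per3 0.841, that of Tef 0.816 and that of Arntl -0.269. For Arntl the nearest genes were Usp32 (r = 0.874), Bmpr1a (r = 0.856), Sppl3 (r = 0.853), Wdr20 (r = 0.853) and Dusp7 (r = 0.851). The 12 points share their 4 group means and their libraries' depth and composition, and these r are descriptions.

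The members lie on separate chromosomes apart from Per1 and Nr1d1 on chromosome 11 and Dbp and Arntl on chromosome 7. On GRCm38, Dbp (ENSMUSG00000059824, chr7:45705088-45710203, plus strand) shares 539 exon bases with Sphk2 on the other strand, and Nr1d1 (ENSMUSG00000020889, chr11:98767932-98775333, minus strand) shares 263 with Thra. The kit does not mark strand, so reads from the shared bases cannot be assigned to one gene. Sphk2 measured 142, 150 and 115 CPM in control and 110.2, 104 and 126 CPM in LL37 skin (-0.26, adjusted p = 0.0693), so it held several times the reads of Dbp and changed less. Thra measured 139.8, 127 and 115 CPM and then 76.1, 78.1 and 95.4 CPM, and it fell by 0.61 (adjusted p = 0.000674), in the direction of Nr1d1. Cry2, Tef and Arntl share 295, 193 and 33 exon bases with antisense or noncoding genes that held few reads, and Per3 shares 0 exon bases with its overlapping neighbour Camta1.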

How the data were processed

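Whole back skin of 12 mice was sequenced as 100-bp paired-end reads. The authors deposited raw read counts per Ensembl gene, without normalization and with 1 column per library. The labels' processing notes list HISAT2 2.0.5, StringTie 1.3.3b, featureCounts 1.5.0-p3, DESeq2 1.16.1 and build mm10, whereas the methods name HTSeq for counting. Both count whole reads, and which made the table was not settled. Gene names, positions and exon lengths came from GENCODE M21 on GRCm38, which is mm10, and 52489 of 52636 genes had a symbol. Promoter windows came from RefSeq (GRCm38.p6).

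Counts were fitted in R 4.3.3 with edgeR 4.0.16 (TMM, filterByExpr by group, robust quasi-likelihood F-test, all 12 libraries in 1 fit of 4 groups), with Benjamini-Hochberg adjustment over 17993 genes. A DEG passes an adjusted p of 0.05 and differs by more than 1 on the log2 scale. SE is the absolute log2 fold change over the root of F, and 95% intervals use the t distribution of the fit. Log2 CPM used a prior count of 2. Depth was 15734559 to 23271784 counts, and 3 counts were taken as the floor. Replicates are independent biological samples.

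The members, gene lists and tests were chosen with earlier results of these data known. From the other clock, glucocorticoid and immediate early lists, genes with an adjusted p under 0.05 in LL37 vs control were named, at most 12, smallest p first, and likeness to Dbp and Arntl named 5 genes each. A gene outside the rule is named as chosen after its values were seen. Of the genes the rule gave, 2 are not reported here. Alternatives were DESeq2 1.42.0 size factors, library size only, TMM without muscle markers, a lower filter (1 count over all libraries) and a higher one (10 in each), the DESeq2 Wald test, a replicate block, a fit of only the groups compared, each library left out, a prior count of 0.5, and muscle markers without Tpm2 and Eno3. The scripts were tested on simulated data.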

Additional observations from a re-analysis of the deposited data

How the results depend on the processing

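Members past an adjusted p under 0.05 in LL37 vs control numbered 8, and 5 with a filter of 1 count in total or with the compared groups only. In these fits 3877 of 17993, 3528 of 31949 and 2956 of 17167 tested genes were lower in LL37 skin. DEGs there numbered 5, but 3 with library size only or a filter of 1 count in total and 2 with the compared groups only. In LL37 vs LL37 + RAPA the 6 members became 3 with the compared groups only, where the lower calls over all genes went from 2214 of 17993 to 1235 of 17234. The 2 DEGs became 1 with these groups only or a filter of 1 count in total. In LL37 + RAPA vs control the 1 member became 0 with library size only or a filter of 1 count in total and 2 with the compared groups only, where the second was Arntl. In LL37 + RAPA vs control + RAPA the 0 members became 1 by the DESeq2 Wald test and 4 with the compared groups only, and the interaction's 0 became 1 by the DESeq2 Wald test. The cause was not tested.

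With each library left out in turn, LL37 vs control gave 6 to 8 members and 1 to 6 DEGs, LL37 vs LL37 + RAPA 3 to 8 members and 0 to 7 DEGs, LL37 + RAPA vs control 0 to 2 members, LL37 + RAPA vs control + RAPA 0 to 4 members, and the interaction 0 to 8 members and 0 to 4 DEGs. The highest count in LL37 vs LL37 + RAPA, in LL37 + RAPA vs control + RAPA and in the interaction came without LL37 replicate 3. In LL37 vs LL37 + RAPA the 6 became 3 without LL37 replicate 1, LL37 replicate 2 or LL37 + RAPA replicate 1. Without any other library except LL37 replicate 3 they became 4 or 5. DEGs in LL37 vs control numbered 2 without LL37 replicate 1, 1 without LL37 replicate 2 and 2 without control replicate 1, 3 without control replicate 3 and 5 or 6 without any of the others. Where 2 libraries were left in a group, they were assumed to vary like the other groups.

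The signs of all 10 members held under every alternative in LL37 vs control and also in LL37 vs LL37 + RAPA. Over 6 comparisons, 28 alternative values of members turned sign, of which 11, 10 and 6 were in LL37 + RAPA vs control, LL37 + RAPA vs control + RAPA and control + RAPA vs control, and 1 was the interaction of Arntl, which ranged from -0.0037 to 0.28 with each library left out. Clock ranged from -0.024 to 0.15 in LL37 vs control, and against LL37 + RAPA from -0.028 to 0.091, with each library left out. Scaling by library size alone moved the median of all genes to 0.08 in LL37 vs control, and the share of lower calls among all calls from 50.6 to 41.0%.

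Replicate numbers were checked for pairing. Of 18 pairs of libraries with the same number in different groups, 4 had deviations that correlated over 0.1. For 4 of 12 libraries the mean correlation with the libraries of the other groups was highest for their own number. These were LL37 replicate 2 and replicate 3 of each other group. The numbers were not taken as pairs. With the number as a replicate block, the counts were 8 and 6 members and 5 and 2 DEGs in LL37 skin against control and against LL37 + RAPA skin, 1 in LL37 + RAPA vs control and 0 in the other comparisons.

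The number of replicates limits these tests. With 3 libraries a group, Dbp had a 95% interval from -2.17 to 0.31 in LL37 vs control. Every member held at least 74 counts in each library.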

Other observations

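Immediate early genes, which are switched on within minutes of handling, light or injury, spread widely between mice of the same group. These genes were read as a family and the pattern was noticed after their values were seen. Fos measured 102, 97.5 and 17.5 CPM in control libraries, 290.1, 35.9 and 16.3 CPM in control + RAPA libraries, 186, 169 and 48.3 CPM in LL37 libraries and 66.8, 75.9 and 23.4 CPM in LL37 + RAPA libraries. Fosb spanned 5.46 to 443 CPM within the control + RAPA group. For Fos, Fosb, Egr1, Ier2 and the phosphatase gene Dusp1, which is from the glucocorticoid list, the lowest library was replicate 3 in all 4 groups. For Junb, Egr2 and Nr4a1 this held in 3 groups, and for Atf3 in 2. Per1, a clock gene with an immediate early response, was lowest in replicate 3 in 3 of the 4 groups, at 213, 237 and 238 CPM in control, control + RAPA and LL37 + RAPA skin, and it was highest there in LL37 skin, at 172 CPM. Cry1 was also lowest in replicate 3 in 3 of the 4 groups, Per2 and Tef in 0, and each of the other members in 1. The part of handling in these values was not tested. The labels do not say that a replicate number marks a shared day or handling. Over genes with a mean of at least 5 CPM, 4 of 18 pairs of libraries with the same number had deviations that correlated over 0.1. Replicate 3 of control, control + RAPA and LL37 + RAPA each correlated best on average with number 3, and with each other at 0.4, 0.156 and 0.069. LL37 replicate 3 correlated with them at -0.135, -0.068 and -0.024. Whether replicate 3 shared a handling was not tested.

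Hlf spanned 18.7 to 24.6 CPM in control libraries and 2.18 to 21.8 CPM in LL37 libraries, a wider span than that of Usp2, which lay between 24.6 and 29.6 CPM in all 3 LL37 libraries. Klf9 was like Usp2, at 34.0 to 42.9 CPM in LL37 skin, so the clock-related genes that stood apart in LL37 replicate 3 and those that did not were present side by side in the same library.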
